A study of Mus musculus with 22 samples.

Results

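The RNAs described here encode the precursors of 6 neuropeptides: galanin (Gal), the enkephalins (Penk), substance P and neurokinin A (Tac1), the CART peptide (Cartpt), neuropeptide Y (Npy) and somatostatin (Sst). They were chosen by gene symbol as peptides of the pons, and all 6 were among the 12596 genes of the deposited table, so none was lost to its filter on low values. Every mouse came from a cross of Th-cre with Slc6a2-eGFP/Rpl10a on a C57Bl/6 background. The Slc6a2 transgene is driven from the gene of the noradrenaline transporter and puts eGFP on the ribosomal protein Rpl10a, so that ribosomes of noradrenergic cells, with the RNA on them, can be pulled down with an antibody. Of the 11 animals, 5 were infused with hTyr (human tyrosinase, the enzyme that makes melanin pigment) and 6 with EYFP, a fluorescent protein used as control. From each animal an immunoprecipitated library (IP, labelled noradrenergic) and a library of the RNA before it (input, labelled total hindbrain) were sequenced, which gave 4 groups: IP and input of the hTyr animals, and IP and input of the EYFP animals. Animals are named by the labels' name of their IP library (IP_501 and so on). The labels used here state no age, sex, infusion site or interval after infusion.

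Neuropeptides are cut from larger precursors in the regulated secretory pathway, packed into dense-core granules and released to act on G protein-coupled receptors. Galanin is the peptide best known from the locus coeruleus, the main noradrenergic nucleus of the pons, where a large share of the neurons make it together with noradrenaline and where it acts back on the cells as an inhibitor. Neuropeptide Y is also made by some noradrenergic neurons, whereas enkephalins, substance P, CART and somatostatin are mainly known from other neurons of the hindbrain, many of them GABAergic or glutamatergic.

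The start regions of these genes are shown because several peptide genes carry the cyclic AMP response element, through which neuronal activity is known to act on their transcription. RefSeq windows of 300 bases (250 before the annotated start and 50 after it, build GRCm38.p6) were matched by symbol for 5 of the 6 genes, and Penk was not matched. They were searched on both strands for the full element TGACGTCA and for its shorter core TGACG, which is also contained in each full element. Of all 32851 RefSeq windows, 1.79% held the full element and 20.8% the core. Cartpt and Sst each held a full element, Gal had 1 TGACG after its annotated start, Tac1 had 2 such matches outside any full element, and these letters were not in the Npy window. The starts are those of RefSeq. By the gene spans printed below, from another annotation (GENCODE M21), the matches of Cartpt and Sst and that of Tac1 at 7555008 also lie inside the gene. Each match is printed 5′ to 3′ on the strand of the gene with 10 bases on either side and the match in capitals, followed by the 250 bases before the annotated start of Gal, in which neither motif was found.
Cartpt, chr13:99900778-99900805, minus strand: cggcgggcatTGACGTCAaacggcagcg
Sst, chr16:23890875-23890902, minus strand: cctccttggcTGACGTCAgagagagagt
Tac1, chr6:7554854-7554878, plus strand: cctaaaattgCGTCAtttcgaacac
Tac1, chr6:7555008-7555032, plus strand: tctacaggctCGTCAcgcctgagat
Gal, chr19:3414511-3414535, minus strand: gctgagccggTGACGcggcagctcc
Gal, chr19:3414545-3414794, minus strand: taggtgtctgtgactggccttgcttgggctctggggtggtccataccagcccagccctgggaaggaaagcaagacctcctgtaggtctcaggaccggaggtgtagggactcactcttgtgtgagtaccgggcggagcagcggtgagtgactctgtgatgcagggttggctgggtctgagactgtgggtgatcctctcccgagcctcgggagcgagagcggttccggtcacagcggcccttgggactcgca

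Levels are given as log2 CPM, the binary logarithm of library-scaled read counts (CPM) as deposited, and differences as log2 changes. Library depth in the table lay between 12654489 and 25100142 reads. Of the 11 noradrenergic marker genes, 10 were higher in IP than in input in both treatments, as the IP label says. The exception was the autoreceptor gene Adra2a (0.25 in EYFP and 0.24 in hTyr animals, limma adjusted p = 0.0531 and 0.0508), which passed in both with the animal as a replicate block. RNA of other cells was still present in IP: the glial score, the mean log2 CPM over 24 oligodendrocyte, astrocyte and microglia genes, spanned 6.75 to 7.28 over the IP libraries and 6.83 to 7.26 over the input libraries. The glial lists differed in direction. Of 9 oligodendrocyte genes, 5 were lower in IP in each treatment, with 1 higher in EYFP and 2 in hTyr animals. Of 7 astrocyte genes, 3 were higher and 1 lower in EYFP animals, and 4 higher and 1 lower in hTyr animals. Among all genes 28.5% were higher and 28.1% lower in EYFP animals, and 27.4% and 27.0% in hTyr animals. In such bulk RNA, more cells of a type and more RNA per cell cannot be told apart.

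The comparison of IP with input asks which of these precursor RNAs were enriched with the tagged ribosomes of noradrenergic cells. Gal stood apart from the other 5: it was 8.60-fold higher in IP than in input in EYFP animals and 9.32-fold higher in hTyr animals, and ranked number 6 of 12596 genes by this difference in each treatment. Penk was also higher in IP in both treatments, by less than 0.3 on the log2 scale. Tac1 was higher in EYFP animals and Sst was lower in hTyr animals, both close to the threshold, while Cartpt and Npy passed in neither. The threshold, an adjusted p of 0.05 (limma on all genes, Benjamini-Hochberg), was thus passed by 3 of the 6 genes in EYFP animals, where 56.5% of all genes passed, and by 3 of the 6 in hTyr animals, where 54.4% passed. By direction, 28.5% of genes were higher and 28.1% lower in EYFP animals, and 27.4% higher and 27.0% lower in hTyr animals. The members' shares are close to the background, and what sets Gal apart is the size of its difference.

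Gal encodes prepro-galanin (gene ENSMUSG00000024907.7; GRCm38 chromosome 19, 3409915 to 3414544, minus strand). In the 5 hTyr IP libraries it measured 7.52 log2 CPM in animal IP_501, 6.94 in IP_502, 5.88 in IP_508, 6.33 in IP_509 and 5.52 in IP_510. The 6 EYFP IP libraries ran from 5.28 in animal IP_511 through a median of 6.17 to 6.69 in animal IP_504. Input stood far lower, at 3.77, 3.27, 3.02, 2.91 and 3.11 in the same hTyr animals and from 2.76 through a median of 2.94 to 3.22 in EYFP animals. The lowest IP library lay above the highest input library in each treatment. Groups that did not overlap, with IP either above or below input, were found for 30.1% of all genes in EYFP and 37.5% in hTyr animals. By mean level the groups ran in the order hTyr IP, EYFP IP, hTyr input and lastly the control input, and only the step from IP to input separated neighbours. For the other 5 genes every neighbouring pair of groups overlapped. In reads, Gal had 744 to 3212 per IP library and 134 to 348 per input library.

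The rise of Gal in IP was 3.10 in EYFP animals (SE 0.17, n = 6 per group, limma adjusted p = 1.04e-08) and 3.22 in hTyr animals (SE 0.28, n = 5 per group, limma adjusted p = 1.15e-07). Within single animals IP exceeded input in 11 of 11, by 2.34 to 3.56 in EYFP and by 2.41 to 3.74 in hTyr. Leaving out any 1 animal left the rise between 3.01 and 3.26 in EYFP and between 3.09 and 3.42 in hTyr. For scale, Dbh, the enzyme that makes noradrenaline from dopamine, rose by 4.02 and 4.30, and Slc6a2, the noradrenaline transporter, by 3.94 and 4.47 in EYFP and hTyr animals.

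**Figure D1:**
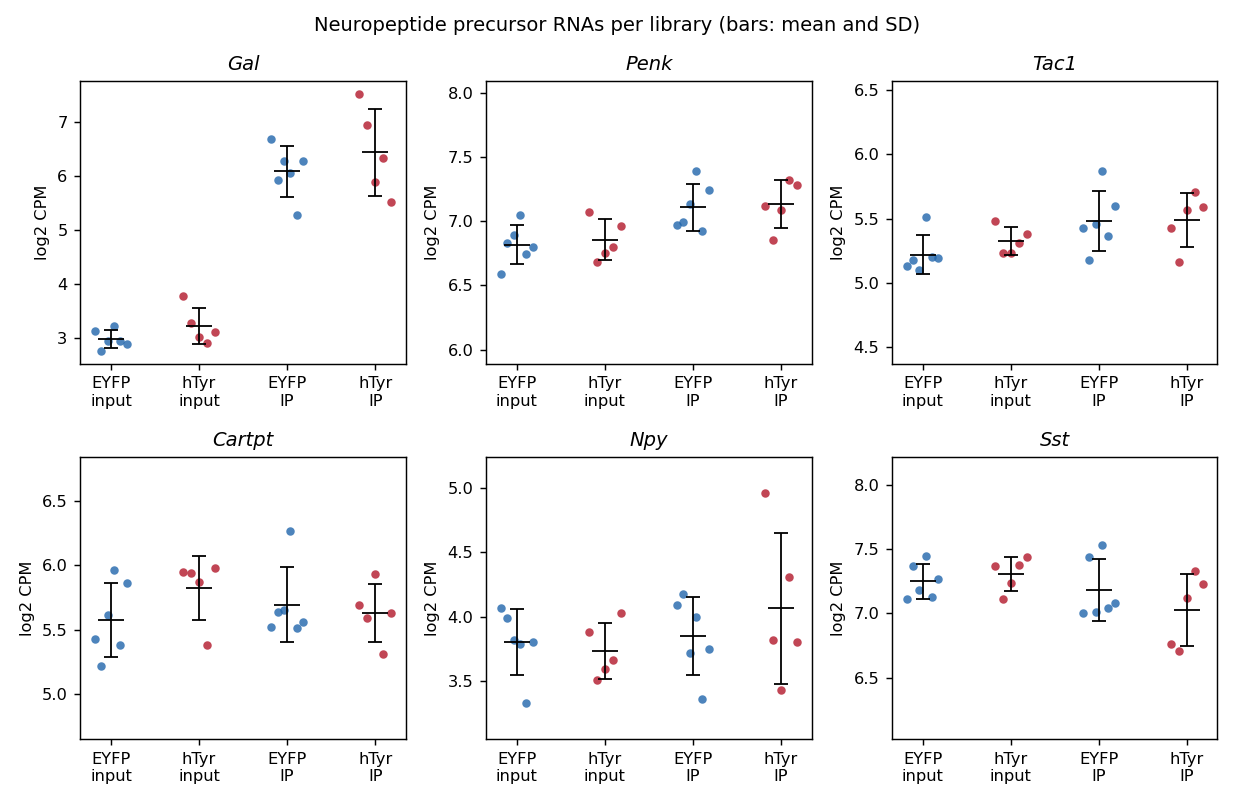
Log2 CPM of each precursor RNA in every library, by treatment (EYFP blue, hTyr red) and fraction, with the mean and SD of each group as a bar; the vertical scales differ between panels. Gal separates IP from input in both treatments, with IP libraries from 5.28 to 7.52 and input libraries from 2.76 to 3.77, while the IP and input libraries of the other genes overlap.

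Penk encodes the precursor of Met- and Leu-enkephalin, opioid peptides (GRCm38 chromosome 4, 4133531 to 4138819). It measured 7.12, 6.85, 7.09, 7.32 and 7.28 log2 CPM in the hTyr IP libraries of animals IP_501, IP_502, IP_508, IP_509 and IP_510, against 7.07, 6.68, 6.75, 6.80 and 6.96 in their input. In EYFP animals IP ran from 6.92 through 7.06 to 7.39 and input from 6.59 through 6.82 to 7.05. The groups overlapped, yet IP was the higher library in 11 of 11 animals. The rise was 0.29 in EYFP (SE 0.09, limma adjusted p = 0.0116) and 0.28 in hTyr animals (SE 0.10, limma adjusted p = 0.0274). In hTyr animals it no longer passed with median centring (0.21, limma adjusted p = 0.0919), without the trend in the prior variance (limma adjusted p = 0.0504) or without animal IP_508, IP_509 or IP_510 (limma adjusted p from 0.0622 to 0.113). An antisense transcript, A830012C17Rik, overlaps Penk in the annotation, and since no strand setting is given its reads cannot be told apart from those of Penk.

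Tac1 encodes the tachykinin precursor from which substance P and neurokinin A are cut (GRCm38 chromosome 6, 7554879 to 7565834). Its hTyr IP libraries stood at 5.43, 5.16, 5.57, 5.71 and 5.59 log2 CPM and their inputs at 5.48, 5.23, 5.23, 5.31 and 5.38. In EYFP animals IP ran from 5.18 through 5.45 to 5.87 and input from 5.10 through 5.19 to 5.51. IP and input overlapped in both treatments, and IP was the higher in 8 of 11 animals. The rise in EYFP animals was 0.26 (SE 0.10, limma adjusted p = 0.0388) and was lost with quantile normalization (0.21, limma adjusted p = 0.0862), with median centring (0.21, limma adjusted p = 0.0872) and without animal IP_504, IP_506, IP_511 or IP_512 (limma adjusted p from 0.0560 to 0.118). In hTyr animals the difference of 0.16 (SE 0.10) had a limma adjusted p of 0.191.

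Some markers of other neurons were also higher in the same IP libraries, where 28.5% of all genes were higher in EYFP and 27.4% in hTyr animals. Of 4 GABAergic or glycinergic genes 3 rose in EYFP and 2 in hTyr animals, among them Gad1 (0.84 and 0.88) and Gad2 (0.33 and 0.48), the enzymes that make GABA. Of 3 cholinergic genes 2 rose in each treatment, with Chat at 0.55 and 0.66. Of the glutamate transporters, Slc17a6 rose by 1.08 and 1.33, while Slc17a7 stood at -0.43 and -0.54 (limma adjusted p = 0.224 and 0.0509). The serotonergic genes Tph2 (1.23 and 1.28) and Slc6a4 (0.41 and 0.35) rose too, while Fev fell by 0.55 in EYFP animals. Their part in the Penk and Tac1 differences was not tested, nor was that of the astrocyte genes higher in IP.

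Sst encodes the precursor of somatostatin, an inhibitory peptide of local interneurons (GRCm38 chromosome 16, 23889573 to 23890958). Its hTyr IP libraries measured 6.76, 6.71, 7.12, 7.33 and 7.23 log2 CPM and their inputs 7.37, 7.11, 7.24, 7.38 and 7.44. In each of the 5 hTyr animals IP was the lower library, by 0.06 to 0.62. The groups overlapped, since animals IP_508, IP_509 and IP_510 had IP levels above the lowest input. The fall was -0.28 (SE 0.12, limma adjusted p = 0.0494), and it no longer passed without the trend in the prior variance (limma adjusted p = 0.0856) or without animal IP_501, IP_502, IP_508 or IP_510 (limma adjusted p from 0.0670 to 0.200). In EYFP animals IP ran from 7.00 through 7.06 to 7.53 and input from 7.11 through 7.23 to 7.45, a difference of -0.07 (SE 0.10, limma adjusted p = 0.577).

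Cartpt encodes the precursor of the cocaine- and amphetamine-regulated transcript peptides (GRCm38 chromosome 13, 99898489 to 99901091). In hTyr animals IP stood at 5.69, 5.59, 5.93, 5.31 and 5.63 log2 CPM and input at 5.95, 5.94, 5.87, 5.38 and 5.98, so that only animal IP_508 had more in IP. In EYFP animals IP ran from 5.51 through 5.60 to 6.27 and input from 5.22 through 5.52 to 5.96, and 5 of 6 animals had more in IP. The differences were 0.12 in EYFP (SE 0.14, limma adjusted p = 0.494) and -0.19 in hTyr animals (SE 0.13, limma adjusted p = 0.206), with 95% confidence intervals from -0.18 to 0.41 and from -0.46 to 0.07.

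Npy encodes the precursor of neuropeptide Y (GRCm38 chromosome 6, 49822710 to 49829507). It had the fewest reads of the 6 genes in IP, 151 to 543 per library. The hTyr IP libraries ranged from 3.43 log2 CPM in animal IP_508 to 4.96 in animal IP_501, with 3.82, 4.31 and 3.80 in animals IP_502, IP_509 and IP_510, against 3.88, 3.51, 3.59, 3.66 and 4.03 in input of animals IP_501, IP_502, IP_508, IP_509 and 510. EYFP IP ran from 3.36 through 3.88 to 4.18 and EYFP input from 3.33 through 3.81 to 4.07. IP exceeded input by 1.07 in animal IP_501, by 0.65 in IP_509 and by 0.31 in IP_502, and lay below it in IP_508 (-0.15) and IP_510 (-0.23), whereas the 6 EYFP animals stayed between -0.10 and 0.21. The mean differences of 0.05 in EYFP (SE 0.14) and 0.33 in hTyr animals (SE 0.22) had limma adjusted p-values of 0.787 and 0.204.

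**Figure D2:**
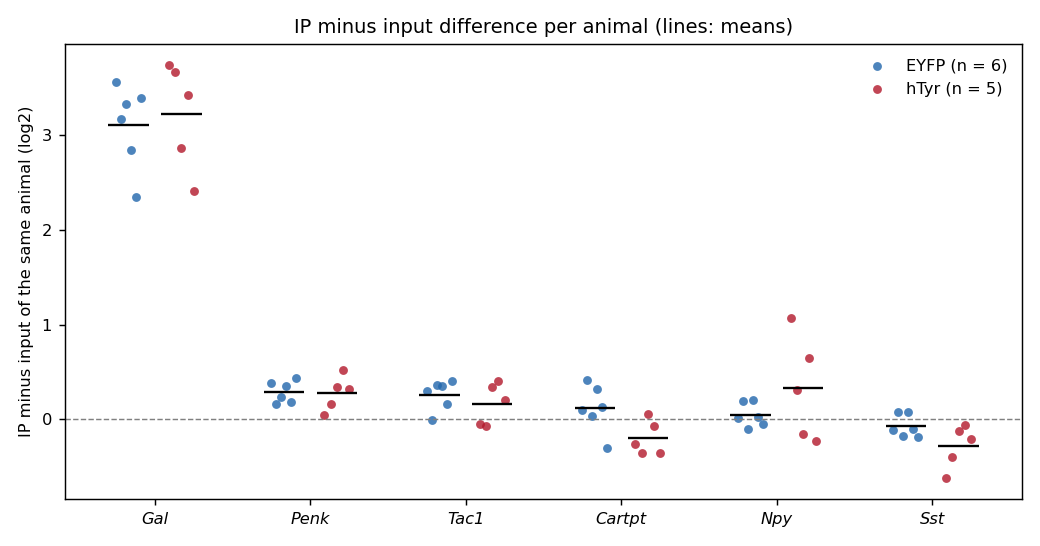
IP minus input of the same animal on the log2 scale for each precursor RNA, with EYFP animals in blue (n = 6), hTyr animals in red (n = 5) and lines for the means. Gal lies between 2.34 and 3.74 in all 11 animals, Penk lies above 0 in all 11, and the hTyr values of Npy spread from -0.23 to 1.07.

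To compare levels between genes, log2 CPM was set per kilobase of annotated exons (log2 CPM per kb, GENCODE M21). In EYFP input the order was Sst (7.72 ± 0.14, SD, n = 6), Penk (6.11 ± 0.15), Cartpt (5.22 ± 0.29), Npy (4.62 ± 0.26), Tac1 (3.45 ± 0.15) and Gal (3.32 ± 0.17). The ranges of Cartpt and Npy overlapped there, as did those of Tac1 and Gal, the last 2 in the order. In EYFP IP the order became Sst (7.65 ± 0.24), Gal (6.43 ± 0.47), Penk (6.40 ± 0.18), Cartpt (5.34 ± 0.29), Npy (4.67 ± 0.30) and Tac1 (3.72 ± 0.23), and only Gal and Penk overlapped as neighbours. In hTyr IP Gal was second again at 6.78 ± 0.80 (SD, n = 5), overlapping both Sst above it and Penk below it. Gal thus went from the lowest of the 6 per-length levels in EYFP input to the second in IP, while the other 5 kept their order among themselves.

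The genes whose IP minus input difference lay nearest to that of Gal over the 11 animals, by root mean square distance on the log2 scale, were Phox2a (0.64), Calcr (0.84), Th (0.90), Ranbp2 (0.98) and Top2b (0.99), against a distance of 3.23 for the median gene. This distance follows the size of the difference, so strongly enriched genes lie near Gal and the median gene must lie far from it. A small distance does not show that a gene varied with Gal between animals. Phox2a is a transcription factor of noradrenergic identity, Th makes the dopamine precursor L-DOPA, and Calcr is the calcitonin receptor. Ranbp2 is a nuclear pore protein and Top2b a topoisomerase. For Penk the nearest were Gnb2 (0.066), Fnta (0.066), Itm2c (0.068), Snx17 (0.076) and Ip6k2 (0.082), against a median of 0.50.

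Within the IP libraries the level of Gal went with that of the noradrenergic markers, a relation chosen after the data were seen and the only one computed. Gal does not enter the noradrenergic score, the mean log2 CPM of the 11 marker genes. Gal and most of these markers were higher in IP than in input. Whether other genes enriched in IP go with the score as closely was not tested. Pearson's r over the 11 animals was 0.89 (permutation p = 0.0007) and Spearman's rho 0.78 (permutation p = 0.0063), with an r of 0.74 without the 2 animals farthest from the median score. In the 6 EYFP animals alone r was 0.90 (exact permutation p = 0.0111) and rho 0.89 (exact permutation p = 0.0333), and 0.93 without the 2 farthest. The 5 hTyr animals are too few for a value of their own. Animal IP_501 had the highest score (7.23) and the highest Gal, and animal IP_511 the lowest of both (5.61 and 5.28 log2 CPM). Animal IP_510 had the lowest Gal for its score, 5.52 log2 CPM at a score of 6.18.

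**Figure D3:**
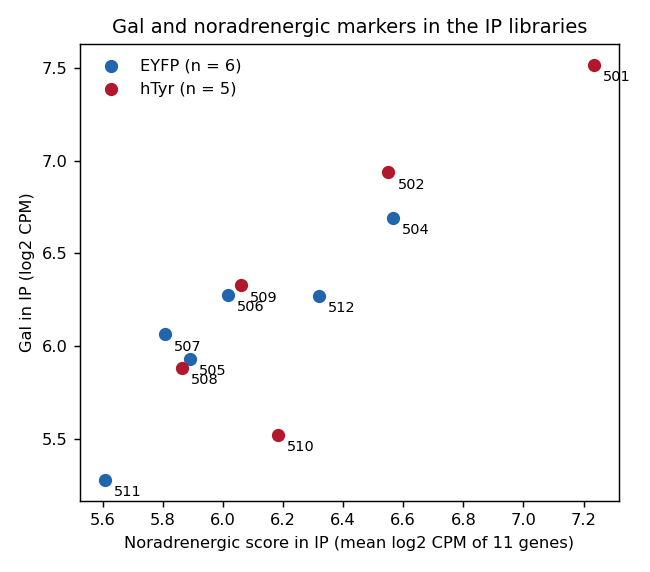
Gal in each IP library (log2 CPM) against the mean log2 CPM of 11 noradrenergic marker genes in the same library, with EYFP animals in blue, hTyr animals in red and the animal number beside each point. Gal and the score run together from animal IP_511 (5.28 and 5.61) to animal IP_501 (7.52 and 7.23), with animal IP_510 below the rest.

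The comparison of hTyr with EYFP asks whether the infusion changed these RNAs in the immunoprecipitate or in the tissue. No member passed the threshold in IP, where 0.0556% of all genes passed, or in input, where 0.00794% passed, and without covariates none of the 6 reached an unadjusted p under 0.05 in limma in either fraction. With voom on the recovered reads no member passed either. In all 12 cases the hTyr and EYFP libraries overlapped, whereas 0.651% of all genes in IP and 0.175% in input did not overlap. Gal in IP averaged 6.44 ± 0.80 log2 CPM over the hTyr animals (SD, n = 5) against 6.08 ± 0.47 over the EYFP animals (SD, n = 6), so hTyr was higher by 0.35 (SE 0.29, 95% confidence interval -0.27 to 0.97, limma adjusted p = 0.889). In input its difference was 0.24 (SE 0.15, 95% confidence interval -0.07 to 0.55, limma adjusted p = 0.990). The 2 highest Gal levels in IP were those of hTyr animals IP_501 and IP_502, which also had 2 of the 3 highest noradrenergic scores. Without animal IP_501 the difference was 0.082 in IP and 0.098 in input.

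The score itself was 6.38 ± 0.54 in hTyr IP (SD, n = 5) and 6.03 ± 0.35 in EYFP IP (SD, n = 6), with an exact permutation p of 0.247 for the difference of 0.34. Gal was also set against the noradrenergic markers of its own library, a test chosen after the data were seen. Gal less the score stood at 0.06 ± 0.42 for the 5 hTyr animals (SD) and at 0.05 ± 0.22 for the 6 EYFP animals (SD), which differ by 0.0082 (exact two-sided permutation p = 0.957). The marker chosen mattered: set against Dbh alone the difference was 0.31 (exact permutation p = 0.0909) and against Slc6a2 alone 0.74 (exact permutation p = 0.0303). Both of these differences were taken in IP, where the hTyr difference of Slc6a2 itself was -0.39 (SE 0.25, limma adjusted p = 0.854) and did not pass. In input the hTyr difference of Slc6a2 was -0.91 (SE 0.13, limma adjusted p = 0.0339), and it was the 1 gene past the threshold there. With the score as a covariate in limma the hTyr difference of Gal was -0.082 in IP but 0.36 in input (unadjusted p = 0.0220, limma adjusted p = 0.703). The same covariate took the input difference of Cartpt from 0.25 to 0.41 (unadjusted p = 0.000885, limma adjusted p = 0.688), and total reads as covariate took it to 0.38 (limma adjusted p = 0.999). The score includes Slc6a2. With the score as covariate 878 of 12596 genes had an unadjusted p under 0.05 in input (limma), against 382 without it.

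The other 5 genes gave narrower intervals. In IP the hTyr difference of Penk was 0.02 (95% confidence interval -0.19 to 0.24), that of Tac1 0.0083 (-0.25 to 0.26), that of Cartpt -0.06 (-0.35 to 0.22), that of Sst -0.15 (-0.43 to 0.12) and that of Npy 0.21 (-0.25 to 0.68). In input the 95% confidence intervals ran from -0.15 to 0.22 for Penk, from -0.07 to 0.28 for Tac1, from -0.04 to 0.53 for Cartpt, from -0.34 to 0.21 for Npy and from -0.11 to 0.22 for Sst. For Npy the IP difference rested on animal IP_501, and it was -0.0079 without that animal.

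**Figure D4:**
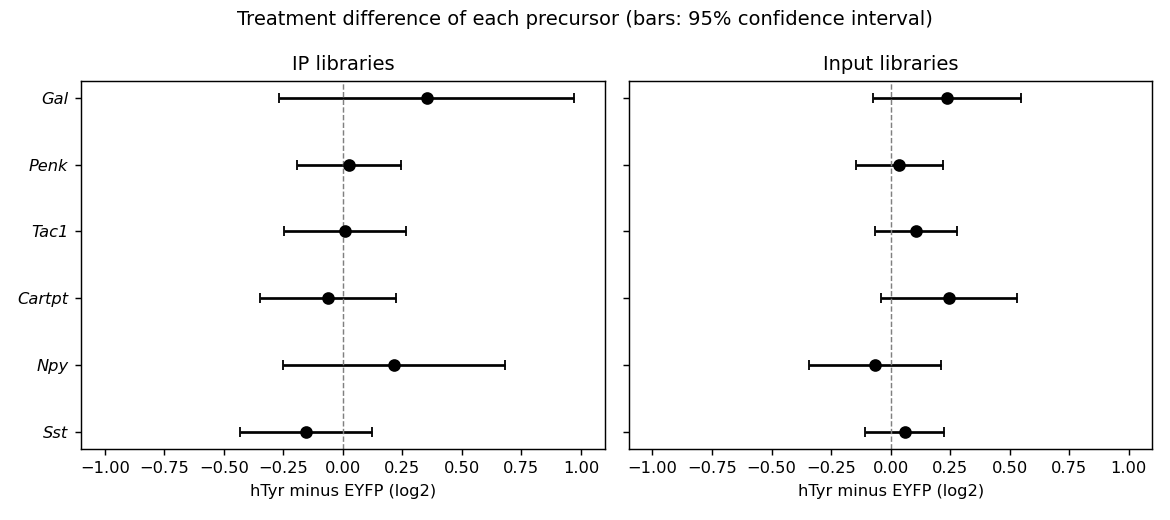
Difference between hTyr and EYFP animals on the log2 scale for each precursor RNA in the IP libraries (left) and the input libraries (right), as the limma estimate with its 95% confidence interval (n = 5 hTyr and 6 EYFP animals). All 12 intervals include 0, and that of Gal in IP is the widest, from -0.27 to 0.97.

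Whether the hTyr difference in IP departed from that in input was tested by the interaction over all 22 libraries, which 0.00794% of genes passed and no member did. The IP minus input differences of the animals were also compared between treatments with an exact permutation test (two-sided, over every division of the 11 animals into 5 and 6), which can give no p below 0.00216. Of the 6 such tests, which were not adjusted, 1 gave a p under 0.05. Cartpt in IP minus input averaged -0.19 ± 0.18 over hTyr animals (SD, n = 5) against 0.12 ± 0.25 over EYFP animals (SD, n = 6), lower by -0.31 (exact permutation p = 0.0433), with 1 of 5 hTyr and 5 of 6 EYFP animals above 0. In limma the same difference had an SE of 0.20 and an adjusted p of 0.996, or an SE of 0.12 and an adjusted p of 0.702 with the animal as a replicate block, so it did not pass over all genes. Without single animals the permutation p ran from 0.0159 to 0.0952, and in 9 of the 11 such tests it was no longer under 0.05. For Sst the difference was -0.21 (exact permutation p = 0.0952), for Npy 0.28 (exact permutation p = 0.281), for Gal 0.12 (exact permutation p = 0.701), for Tac1 -0.10 (exact permutation p = 0.403) and for Penk -0.01 (exact permutation p = 0.879).

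Receptors for these peptides were described from a list of 20 genes, of which 10 were in the table. The galanin receptors Galr1, Galr2 and Galr3 and the mu opioid receptor Oprm1 were among the 10 not analysed here. In EYFP animals 4 receptors were higher and 1 lower in IP, with 5 not past the threshold, and in hTyr animals 5 were higher, 2 lower and 3 not past it. These are 50% and 70% of the receptors, against 56.5% and 54.4% of all genes. The median log2 change was 0.25 and 0.38, against -0.03 and -0.04 over all genes. Both treatments shared 4 higher genes, the kappa opioid receptor Oprk1 (0.53 in EYFP and 0.65 in hTyr), the neurokinin B receptor Tacr3 (0.35 and 0.71), the somatostatin receptor Sstr2 (0.39 and 0.61) and the nociceptin receptor Oprl1 (0.37 and 0.32). The delta opioid receptor Oprd1 was the shared lower gene (-0.32 and -0.44). Tacr3 did not pass in EYFP animals with median centring.

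Genes that cut, modify, pack or release peptides were more often higher than lower in IP. Of the 35 list genes measured, 19 were higher and 4 lower in EYFP animals, 65.7% in all, and 22 were higher and 6 lower in hTyr animals, 80% in all, against 56.5% and 54.4% of all genes. With median centring 16 were higher in each treatment, with 5 lower in EYFP and 6 in hTyr animals. The list had medians of 0.23 and 0.30. Pcsk1, the prohormone convertase PC1/3, rose most, by 1.24 in EYFP (SE 0.14, limma adjusted p = 3.96e-06) and by 1.53 in hTyr animals (SE 0.11, limma adjusted p = 2.75e-08). It stood at 5.12 ± 0.37 in EYFP IP against 3.88 ± 0.16 log2 CPM in EYFP input (SD, n = 6). Next came Syt4, a synaptotagmin of peptide granules (0.92 and 1.37), Qpct, which forms N-terminal pyroglutamate (0.88 and 1.16), and the granin Scg2 (0.89 and 0.97). The 4 lower in both treatments were the calcium sensor Syt7 (-0.74 and -0.84), the convertases Furin (-0.59 and -0.70) and Pcsk7 (-0.40 and -0.45), and the vesicle SNARE Vamp2 (-0.39 and -0.33). Furin and Pcsk7 belong to the constitutive secretory pathway.

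Other neuropeptide precursors gave a mixed picture. Of 60 listed genes, 21 were measured, with 5 higher and 2 lower in IP in EYFP animals and 5 higher and 1 lower in hTyr animals, and medians of -0.02 and -0.09. The 33.3% and 28.6% past the threshold compare with 56.5% and 54.4% of all genes. With the animal as a replicate block 8 were higher and 4 lower in EYFP animals. Calca, which encodes calcitonin and CGRP, had the largest rise of this list, 1.66 in EYFP (limma adjusted p = 9.04e-07) and 1.73 in hTyr animals (limma adjusted p = 1.81e-06), less than the 3.10 and 3.22 of Gal. Nucb2, the nesfatin precursor, rose by 0.59 and 1.12, the dynorphin precursor Pdyn by 0.57 and 0.86, and the neurotrophin Bdnf by 0.35 and 0.79. Apln, the apelin precursor, was lower by -0.76 and -0.85. No gene of the 3 lists passed in hTyr against EYFP in IP or input or in the interaction. At an unadjusted p under 0.05 in IP (limma) there were 1 of 10 receptors, 3 of 35 processing genes and 2 of 21 other precursors. Over all genes there were 780 of 12596.

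**Figure D5:**
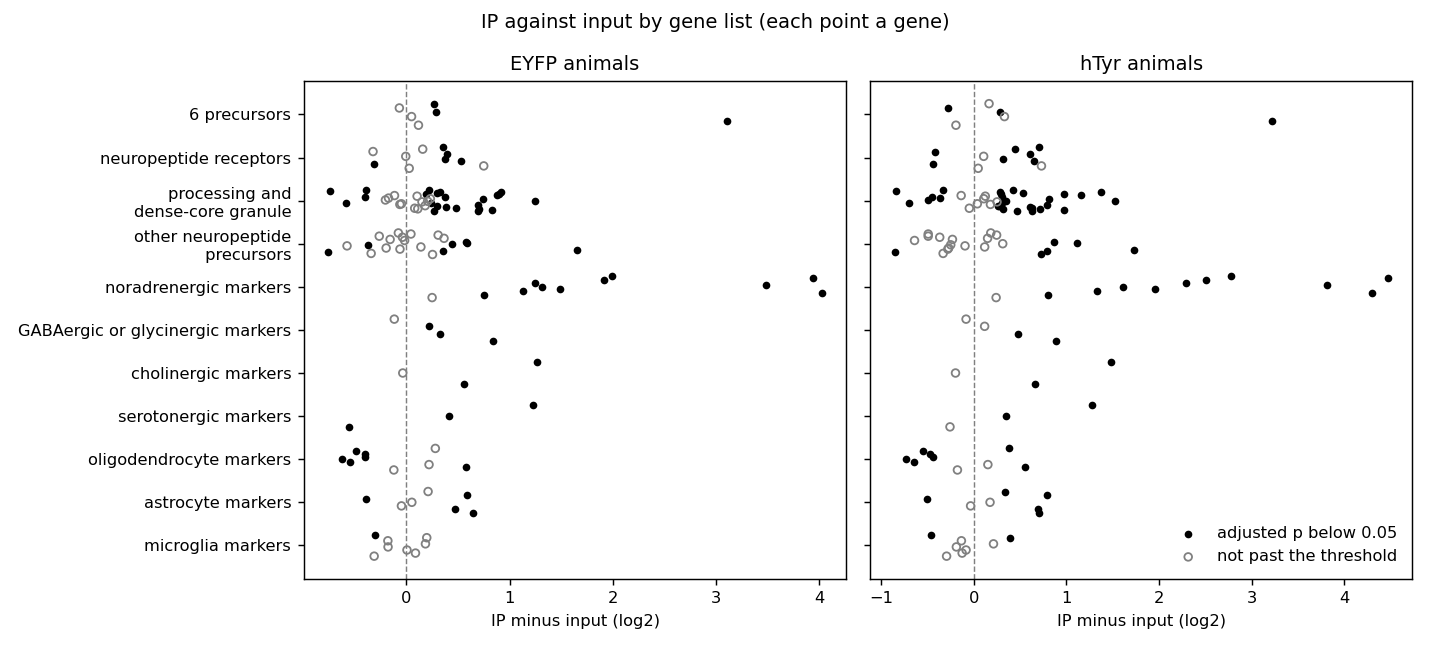
IP minus input on the log2 scale for each gene of the lists, in EYFP animals (left) and hTyr animals (right), with filled points for an adjusted p below 0.05 and open points for the rest. Gal, at 3.10 and 3.22, lies among the most enriched noradrenergic markers, and the other 5 precursors lie between -0.28 and 0.33.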

How the data were processed

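RNA from 11 animals, as IP and input, gave 22 libraries. Reads were processed with STAR and featureCounts on mm10, per the submitters' processing notes, with no versions, strand setting or filter given in the sources used here. The authors deposited log2 values for 12596 genes, named as filtered, normalized and log transformed. Tested on the values, they were log2 CPM (read counts scaled to library size) with an added count that averaged 2 reads, and 100% of values gave whole reads within 0.1 read. Precision from depth covers counting error only, since no molecular identifiers are described.

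Each comparison used limma 3.58.1 (R 4.3.3) on those log2 values (lmFit, eBayes with trend), Benjamini-Hochberg over all genes, threshold 0.05, without an animal term. The fit was tested on simulated data with independent libraries and no animal effect, which does not cover the pairing of libraries. Libraries of an animal deviated from their group means together (mean r 0.45, 0.28 to 0.63, n = 11, against -0.04 between animals), and the animal number in the titles pairs them. Scores are mean log2 CPM over marker genes. Alternatives were another scaling, filter, pseudocount (5 CPM), spread, voom on recovered reads, covariates, the block and leaving out each animal. The named genes were the 6 members, the 5 genes nearest to a member that passed in both treatments, and up to 4 genes per list and direction past the threshold in both. Members and lists were chosen with earlier results of these data known. Nothing in the labels says that animals were pooled. The p-values of hTyr against EYFP within a fraction and of the permutation tests measure the spread between animals. Those of limma for IP against input and for the interaction, without the block, measure the spread between libraries. They treat the paired libraries of an animal as independent.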

Additional observations from a re-analysis of the deposited data

Results flagged for a closer look

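Among 36 groups tested for a library far from the rest, where chance gives 1.8, there were 4. Cartpt in EYFP IP was high in animal IP_507, at 6.27 log2 CPM where the next library stood at 5.65. Tac1 in EYFP input was high in the same animal, at 5.51 with the next at 5.20. Cartpt in hTyr input was low in animal IP_509, at 5.38 with the next at 5.87. Npy in EYFP input was low in animal IP_511, at 3.33 with the next at 3.79.

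The IP minus input difference of Cartpt was lower in hTyr than in EYFP animals by a log2 difference of -0.309 (exact permutation p = 0.0433, the lowest of 6 tests and not adjusted). It did not pass over all genes in limma's interaction (adjusted p = 0.996), and the high EYFP IP library of animal IP_507 and the low hTyr input library of animal IP_509 enter it. Without animal IP_507 it was -0.27 (exact permutation p = 0.0794) and without animal IP_509 -0.34 (exact permutation p = 0.0571). The permutation p was no longer under 0.05 in 9 of the 11 tests that left out 1 animal.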

How the results depend on the processing

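The rise of Gal in IP passed under each alternative run in both treatments. The count of genes for hTyr against EYFP in IP was 7, and became 14 with one spread over all libraries, 3 with total reads as covariate and 3 to 11 without single animals. In input it was 1, and 0 with one spread, the noradrenergic score or total reads, and 0 to 2 without single animals. The interaction count was 1, and 3 with the glial score, 0 with the noradrenergic score, 0 with total reads, 5 with the animal as a replicate block and 0 to 5 without single animals. The block changed no member's call.

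Signs turned for differences that passed no threshold. For hTyr against EYFP in IP, the noradrenergic score as covariate gave Gal -0.082 and Npy -0.025, and the glial score gave Penk -0.0053 and Tac1 -0.029. In the interaction the noradrenergic score gave Gal -0.42, Penk 0.0013 and Npy -0.0039, and total reads gave Penk 0.044. Median centring gave Npy -0.0011 for IP against input in EYFP animals. Without single animals, hTyr against EYFP in IP ran from -0.022 to 0.096 for Penk, -0.053 to 0.091 for Tac1, -0.14 to 0.052 for Cartpt and -0.0079 to 0.37 for Npy, and in input from -0.017 to 0.083 for Penk. The interaction and the paired difference ran from -0.037 to 0.32 for Gal and from -0.072 to 0.045 for Penk. The paired difference of Cartpt ran from -0.39 to -0.25, and that of Sst from -0.27 (without animal IP_509, exact permutation p = 0.0381) to -0.13. Gal minus the noradrenergic score ran from -0.074 to 0.19. The cause was not tested. The lowest read numbers of a member were those of Npy in IP (151 to 543 per library) and of Gal in input (134 to 348).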
